A study of Homo sapiens with 4 samples.

Results

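Of the 22578 genes in the deposited expression table, 10 belong to a small group of NF-κB genes that was chosen by gene symbol: the Rel subunits *NFKB1*, *NFKB2*, *RELA*, *RELB* and *REL*, the inhibitors *NFKBIA* and *NFKBIE*, and the direct targets *TNFAIP3*, *TNFAIP2* and *BIRC3*. All 10 had a row, and all 10 passed the filter on low values, which asked for a mean of 10 raw counts or more in shKDM2B or shControl. Their mRNA was measured by RNA-seq in U87MG, an established human GBM line, carrying a retroviral short hairpin RNA against *KDM2B* (shKDM2B, 2 libraries) or against firefly luciferase (shControl, 2 libraries). All cells were at passage 8, were transduced on day 1, were kept under puromycin at 1 µg/ml from day 3 and were collected on day 9. No cytokine or other NF-κB stimulus is named in the labels for either group, and the sources used here do not give the hairpin against *KDM2B* of each shKDM2B library. The libraries are titled shKDM2B-1 and shKDM2B-2, which are also the study's names for its 2 hairpins against *KDM2B*. The shControl libraries are numbered in the same way, so the numbers could stand for hairpins or for replicates.

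NF-κB is a family of dimeric transcription factors. The subunits RelA, RelB and c-Rel carry activation domains, whereas *NFKB1* and *NFKB2* encode the precursors p105 and p100, which are processed to the DNA-binding subunits p50 and p52. In resting cells IκB proteins hold the dimers in the cytoplasm until the IκB kinase complex marks them for degradation, and several inhibitors, among them IκBα and A20, are themselves transcribed from NF-κB target genes. In GBM, NF-κB activity is known for its links to inflammatory cytokines and to survival signaling. KDM2B, the demethylase silenced here, binds unmethylated CpG-rich DNA and removes methyl groups from H3K36.

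The libraries held 33770421 and 33330886 counts in shKDM2B and 31433165 and 30470803 in shControl. *KDM2B* had 520 and 465 counts in shKDM2B, against 1257 and 1253 in shControl, a log2 fold change of -1.60 (SE 0.06, adjusted p = 3.38e-19 by edgeR's quasi-likelihood test). Of 7 glial and glioma markers 5 had a row, with *VIM* at 88536 and 87853 counts in shKDM2B and 132879 and 130857 in shControl, *CD44* at 39401 and 38115 in shKDM2B and 55101 and 54188 in shControl, *GFAP* at 168 and 172 counts in shKDM2B and 77 and 68 in shControl, and no row for *S100B* and *SOX2* in the table used here. *NES* had 817 and 897 counts in shKDM2B and 824 and 815 in shControl, and *OLIG2* had 35 and 28 in shKDM2B and 24 and 29 in shControl. The summed level of the 5 was 3812 to 3819 CPM (counts per M counts of the library, after TMM scaling) in shKDM2B and 6010 to 6103 CPM in shControl. Nearly all of this sum came from *VIM* and *CD44*, so it follows those genes. Markers of other lineages were low: the leukocyte list, 2 of 4 with a row, summed to 14.7 to 16.4 CPM in shKDM2B and 12.3 to 13.1 CPM in shControl, with *PTPRC* at 3 to 10 counts and nearly all of the sum from *CSF1R*, which had 491 and 542 counts in shKDM2B and 410 and 364 in shControl. The endothelial list, 1 of 3, summed to 0.859 to 1.08 CPM in shKDM2B and 0.318 to 0.394 CPM in shControl, and the epithelial list, 1 of 3, to 1.18 to 1.35 CPM in shKDM2B and 0.689 to 0.700 CPM in shControl. The part of these marker differences in the results below was not tested. In such bulk RNA, fewer cells of a type and less RNA per cell cannot be told apart, and the p-values reflect the spread of these 4 libraries alone. The study calls the replicates of a group biological without naming what separates them, so part or most of that spread may be technical. It was small, with a common biological coefficient of variation of 2.62%. By a chi-square test within groups, 9.34% of genes in shKDM2B and 11.7% in shControl varied beyond counting noise. For most genes the p-values thus rest on little spread beyond that of counting. Spread between independent cultures was not tested.

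Upon KDM2B knockdown, 3 of the 10 NF-κB genes rose at least 1.5-fold: *TNFAIP2* by 3.60-fold, *BIRC3* by 2.39-fold and *NFKB1* by 1.55-fold. None fell by that much, and 7 were not called. To be called, a gene needed an adjusted p of 0.05 or less (Benjamini-Hochberg over the 21783 genes tested) together with a 1.5-fold difference, a rule that took 13.3% of all genes as higher and 6.79% as lower, together 20.0%. By the adjusted p without a fold threshold, 6 of the 10 were higher and 2 lower, where 28.4% and 29.5% of all genes were, 57.9% in either direction. The median log2 fold change was 0.32 over the 10 genes and 0.01 over all genes tested. The groups did not overlap in 9 of the 10 genes, all but *TNFAIP3*, and in 77.6% of all genes tested.

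TMM takes most genes as unchanged, and the scale of all these values rests on it. With fold changes centred on 82 ribosomal protein genes, the median of all genes was 0.36, 6216 genes were called higher and 469 lower, against 2887 and 1478 under TMM, and the 10 genes held 6 higher calls: *NFKB2* (0.64), *RELB* (0.92) and *REL* (0.69) joined *NFKB1* (0.98), *TNFAIP2* (2.19) and *BIRC3* (1.60). By library totals alone, 3833 genes were called higher and 938 lower, with 4 of the 10 genes higher, since *RELB* (0.70) passed 1.5-fold. *TNFAIP2*, *BIRC3* and *NFKB1* were called under each scaling tried.

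**Figure D1:**
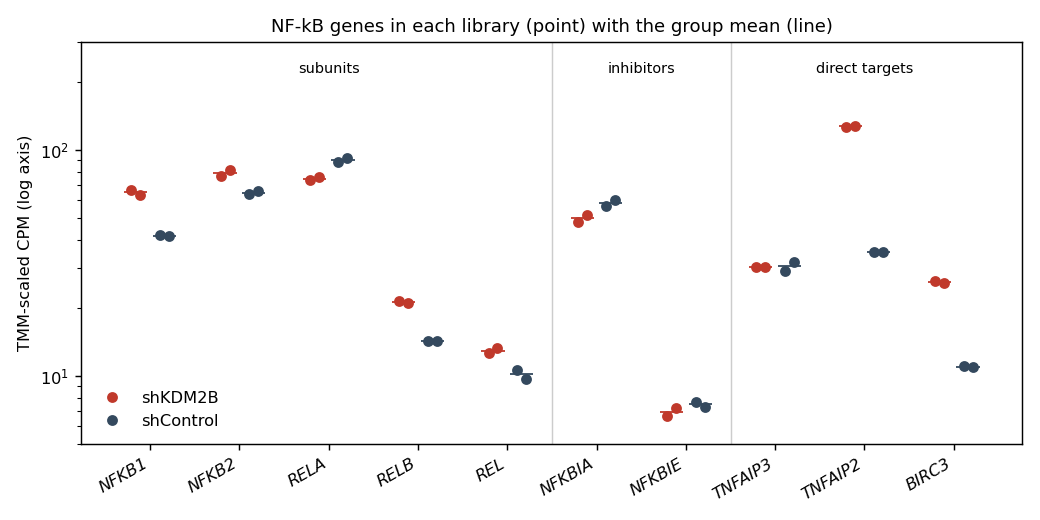
TMM-scaled CPM (log axis) of the 10 NF-κB genes in each library, with shKDM2B points left of shControl points and a line at each group mean. *TNFAIP2* lies at 127 and 128 CPM in shKDM2B against 35.3 and 35.4 CPM in shControl, and the groups overlap for *TNFAIP3* only.

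NF-κB binds κB sites, and matches to κB motifs were looked for in RefSeq promoter windows (GRCh38.p14, 250 bases before to 50 after an annotated transcript start), of which 8 of the 10 genes had 12. *RELB* and *NFKBIE* had no window in the table. The loose motif GGGNNNNNCC, searched on both strands, was present in 12 of 12 windows and in 68.6% of the 19353 windows of genes in the expression table. The classical κB consensus, whose matches are all matches to the loose motif as well, was present in 7 of the 12 windows (58.3%) and in 6 of the 8 genes (75.0%), where 6.62% of those windows and 8.67% of those genes held it. The genes were chosen as NF-κB genes, some as direct targets, so this excess is no independent result. Such a match is a string of letters and not a site shown to be bound. A window without one may still lie near a κB site outside it, or hold a site of other letters. The classical consensus reads GGG, A or G, any base, A or T, C or T, C or T, then CC, on either strand. The stretches below, on the strand of each gene and 5′ to 3′, are shown because they hold every classical match in the windows of the 8 genes, in capitals.
*NFKB1*, chr4:102501290-102501339, plus strand: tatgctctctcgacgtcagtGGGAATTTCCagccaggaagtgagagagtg
*NFKB2*, middle window, chr10:102394451-102394529, plus strand: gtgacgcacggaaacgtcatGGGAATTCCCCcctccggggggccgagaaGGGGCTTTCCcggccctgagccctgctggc
*NFKB2*, last window, chr10:102395509-102395558, plus strand: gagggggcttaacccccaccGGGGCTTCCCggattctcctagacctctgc
*NFKB2*, last window, chr10:102395664-102395704, plus strand: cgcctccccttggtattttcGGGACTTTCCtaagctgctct
*REL*, chr2:60881507-60881557, plus strand: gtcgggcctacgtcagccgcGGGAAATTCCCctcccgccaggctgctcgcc
*NFKBIA*, chr14:35404801-35404850, minus strand: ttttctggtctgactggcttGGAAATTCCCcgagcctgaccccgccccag
*TNFAIP3*, chr6:137867172-137867233, plus strand: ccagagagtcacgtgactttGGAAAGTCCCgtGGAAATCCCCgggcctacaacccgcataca
*BIRC3*, distal match, chr11:102317265-102317314, plus strand: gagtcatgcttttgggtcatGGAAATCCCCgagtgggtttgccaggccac
*BIRC3*, proximal match, chr11:102317329-102317378, plus strand: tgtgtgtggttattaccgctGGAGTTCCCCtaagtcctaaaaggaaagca

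The *TNFAIP2* window held loose matches only. It is shown because *TNFAIP2* had the highest fold change of the 10 genes, here without the bases after the start and with the loose matches in capitals.
*TNFAIP2*, chr14:103123211-103123460, plus strand: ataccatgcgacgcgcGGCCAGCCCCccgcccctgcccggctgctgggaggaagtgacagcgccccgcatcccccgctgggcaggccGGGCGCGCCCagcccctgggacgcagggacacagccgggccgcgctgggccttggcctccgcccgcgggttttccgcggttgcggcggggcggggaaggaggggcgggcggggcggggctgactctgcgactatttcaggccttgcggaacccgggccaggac

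Among the 6 genes with a classical match, *NFKB1* and *BIRC3* were called higher, whereas *NFKB2*, *REL*, *NFKBIA* and *TNFAIP3* were not called. Of the 2 genes with windows and no classical match, *TNFAIP2* was called higher and *RELA* was not called. The windows of the 8 genes held 7 to 48 CpG dinucleotides with a median of 28, where the windows of genes in the table had a median of 23.

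**Figure D2:**
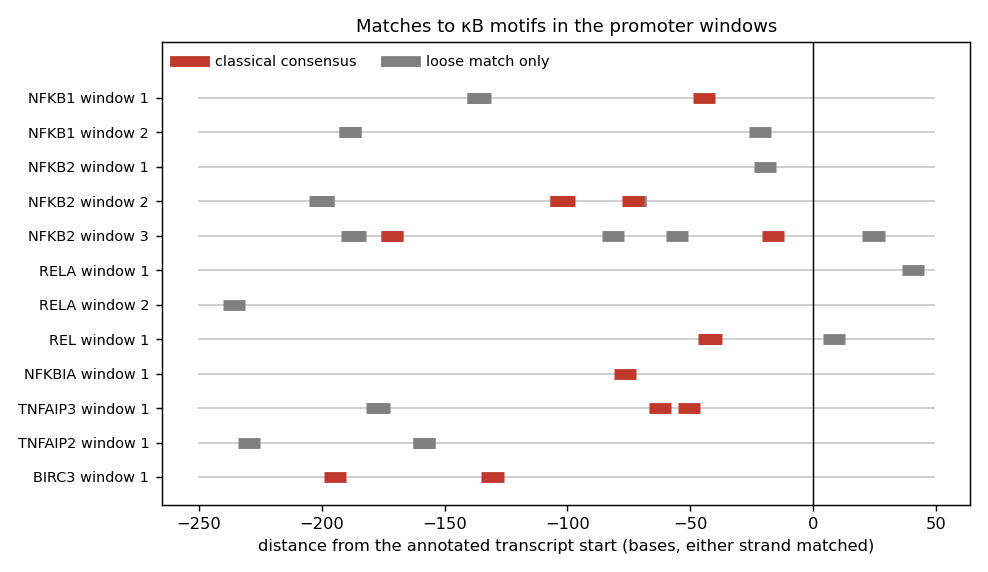
Matches to the κB motifs along the 12 promoter windows of 8 NF-κB genes, by distance in bases from the annotated transcript start (vertical line), with classical matches drawn over loose ones. Classical matches lie in 7 windows and are missing from those of *RELA* and *TNFAIP2*.

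Of the 5 subunit genes, 4 were higher and 1 lower by the adjusted p under TMM, where 28.4% and 29.5% of all genes were. With the 1.5-fold threshold *NFKB1* alone was called, where 13.3% of all genes were called higher and 6.79% lower. *NFKB1* encodes p105 and p50 (ENSG00000109320, GRCh37 chr4:103422487-103538459, plus strand) and had 2344 and 2208 counts in shKDM2B, against 1259 and 1212 in shControl. Scaled, these were 66.4 and 63.3 CPM in shKDM2B and 41.9 and 41.6 CPM in shControl. Both shKDM2B libraries were above both shControl libraries by far more than the libraries of a group differed. The log2 fold change was 0.63 (SE 0.04, 95% interval 0.55 to 0.72, adjusted p = 1.59e-13 by edgeR's quasi-likelihood test), so that its interval included 1.5-fold, which is 0.58 on the log2 scale.

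*RELB*, whose product pairs mainly with p52 in the noncanonical pathway, lay just under the fold threshold. This gene (ENSG00000104856, GRCh37 chr19:45504719-45541450, plus strand) had 21.4 and 20.9 CPM in shKDM2B, from 754 and 729 counts, against 14.3 and 14.2 CPM in shControl, from 429 and 412 counts. The groups did not overlap. The log2 fold change was 0.57 (SE 0.07, 95% interval 0.43 to 0.71, adjusted p = 4.43e-08 by edgeR's quasi-likelihood test), and *RELB* was called with library totals, with centring on ribosomal protein genes and with a minimum mean count of 50 (0.60).

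*NFKB2*, which encodes p100 and p52 (ENSG00000077150, GRCh37 chr10:104153867-104162281, plus strand), had 76.9 and 81.5 CPM in shKDM2B and 63.6 and 65.6 CPM in shControl. The shKDM2B libraries were both above the shControl libraries, with a log2 fold change of 0.29 (SE 0.04, adjusted p = 4.69e-07 by edgeR's quasi-likelihood test), under 1.5-fold. *REL*, which encodes c-Rel, best known from lymphocytes (ENSG00000162924, GRCh37 chr2:61108626-61158747, plus strand), had 12.6 and 13.2 CPM in shKDM2B and 10.6 and 9.69 CPM in shControl. Its groups did not overlap either, with a log2 fold change of 0.34 (SE 0.09, adjusted p = 0.00131 by the same test), also under 1.5-fold. Of the exonic bases of *REL*, 33.3% are shared with the gene ENSG00000267520 on the same strand, which had 167 and 159 counts in shKDM2B and 117 and 114 in shControl, and reads in the shared part cannot be told apart from these counts.

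*RELA*, which encodes p65, the main activating subunit of the canonical pathway (ENSG00000173039, GRCh37 chr11:65421070-65430561, minus strand), lay the other way. Its raw counts were close, 2590 and 2657 in shKDM2B and 2670 and 2674 in shControl, and scaled they were 73.3 and 76.1 CPM in shKDM2B and 88.9 and 91.9 CPM in shControl. The scaled groups did not overlap. The log2 fold change was -0.27 (SE 0.04, adjusted p = 5.39e-07 by edgeR's quasi-likelihood test), under 1.5-fold, and it was 0.07 when centred on ribosomal protein genes, so the direction of *RELA* depended on the scaling.

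**Figure D3:**
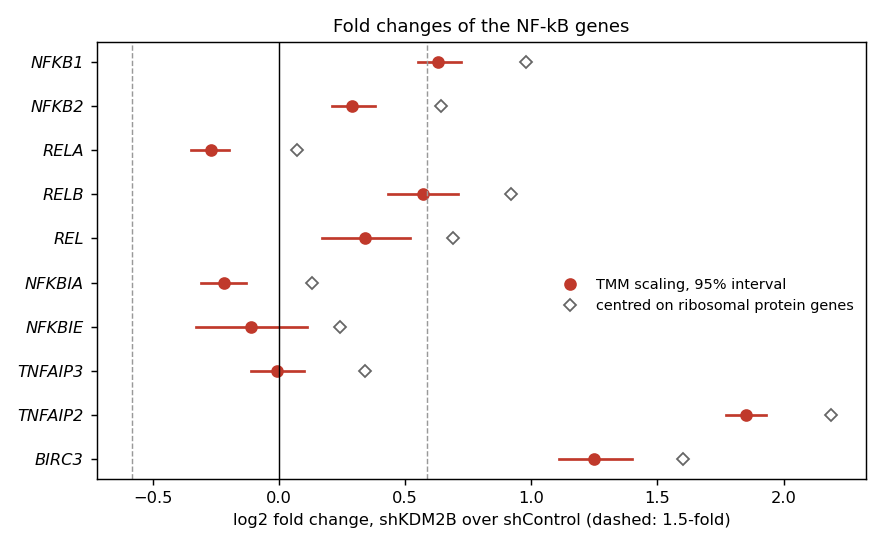
Log2 fold change, shKDM2B over shControl, of the 10 NF-κB genes, with filled points and 95% intervals for TMM scaling, open diamonds for centring on ribosomal protein genes, and dashed lines at 1.5-fold. *TNFAIP2*, *BIRC3* and *NFKB1* lie beyond the right dashed line under both scalings, and *RELA*, *NFKBIA*, *NFKBIE* and *TNFAIP3* change sign between them.

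A ratio of genes within a library does not depend on the scaling between libraries. Per length of exon, the ratio of *RELB* to *RELA* was 0.53 and 0.50 in shKDM2B and 0.293 and 0.281 in shControl, a log2 difference of 0.84. *REL* to *RELA* was 0.0547 and 0.0550 in shKDM2B and 0.0379 and 0.0336 in shControl, a log2 difference of 0.62. The ratio of *NFKB2* to *NFKB1* was 3.25 and 3.62 in shKDM2B and 4.26 and 4.43 in shControl, a log2 difference of -0.34. In all 3 ratios the groups did not overlap, so the subunit mRNAs differed unequally between shKDM2B and shControl. For each of the 6 ratios compared here and further on, the exact two-sided permutation test over libraries gave p = 0.333, the smallest it can give with 2 against 2.

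As shares of the 5 subunit mRNAs, each taken as CPM per kb of exon, *RELA* held 34.2% and 34.6% in shKDM2B and 45.6% and 46.1% in shControl. *NFKB1* held 10.8% and 10.0% in shKDM2B and 7.48% and 7.27% in shControl. *RELB* held 18.1% and 17.3% in shKDM2B and 13.3% and 12.9% in shControl. The shKDM2B libraries thus had the lower share of *RELA* and the higher shares of *NFKB1* and *RELB*. How the subunits compare within a library rests on the length used. In shKDM2B, *NFKB1* and *RELB* had 4.13 and 7.05 CPM per kb of exon, and 9.21 and 9.35 with the longest transcript. *NFKB2* held 35% and 36.2% in shKDM2B and 31.9% and 32.2% in shControl, and *REL* held under 2% of the subunit mRNA in each library, 1.55% to 1.90%.

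**Figure D4:**
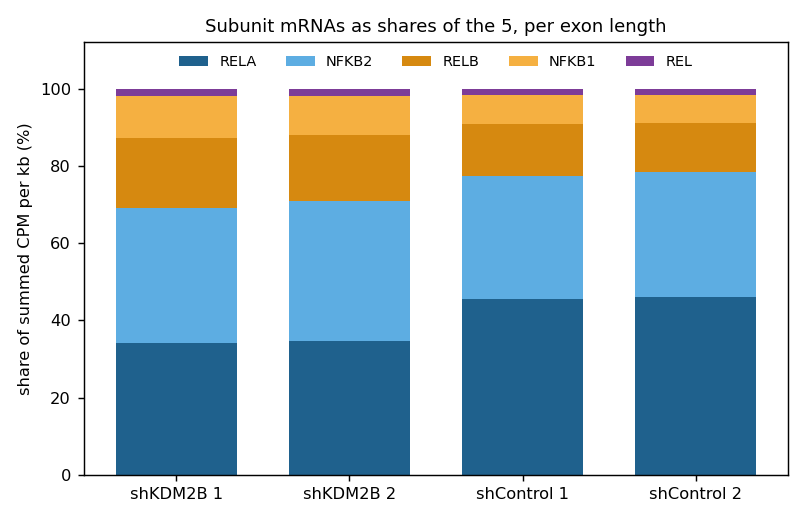
Share (%) of each Rel subunit mRNA in the summed CPM per kb of exon of the 5 subunits, as stacked bars for each library. *RELA* takes 34.2% and 34.6% in the shKDM2B libraries and 45.6% and 46.1% in the shControl libraries.

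The inhibitor genes were not called. *NFKBIA*, which encodes IκBα, the inhibitor that is rapidly resynthesized after NF-κB activation (ENSG00000100906, GRCh37 chr14:35870285-35873955, minus strand), had 1699 and 1798 counts in shKDM2B and 1693 and 1740 in shControl. Scaled, it had 48.1 and 51.5 CPM in shKDM2B and 56.4 and 59.8 CPM in shControl, so that the groups overlapped as raw counts and not as scaled values. The log2 fold change was -0.22 (SE 0.04, adjusted p = 6.68e-05 by edgeR's quasi-likelihood test) under TMM and 0.13 when centred on ribosomal protein genes. Within libraries the ratio of *NFKBIA* to *RELA* was 1.05 and 1.09 in shKDM2B and 1.02 and 1.05 in shControl, a log2 difference of 0.05 that was of the size of the spread within groups (SD 0.03 in each). *NFKBIE*, which encodes IκBε (ENSG00000146232, GRCh37 chr6:44225903-44233525, minus strand), had 6.63 and 7.19 CPM in shKDM2B, against 7.66 and 7.25 CPM in shControl. The groups lay close together without overlapping, and the log2 fold change of -0.11 (SE 0.11, 95% interval -0.33 to 0.11, adjusted p = 0.393 by the same test) turned to 0.02 by library totals and 0.24 when centred.

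*TNFAIP3*, which encodes A20, the ubiquitin-editing enzyme that ends NF-κB signaling (ENSG00000118503, GRCh37 chr6:138188351-138204451, plus strand), had 30.3 and 30.4 CPM in shKDM2B and 29.0 and 32.0 CPM in shControl. The shKDM2B libraries fell between the shControl libraries. Its log2 fold change was -0.01 (SE 0.05, 95% interval -0.11 to 0.10, adjusted p = 0.942 by edgeR's quasi-likelihood test) and 0.34 when centred on ribosomal protein genes. The ratio of *TNFAIP3* to *NFKBIA* was 0.332 and 0.311 in shKDM2B and 0.271 and 0.282 in shControl, without overlap, a log2 difference of 0.22.

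*TNFAIP2* showed the highest fold change of the 10 genes. It encodes a tumor necrosis factor-induced protein known for its part in membrane protrusions and nanotubes between cells (ENSG00000185215, GRCh37 chr14:103587813-103603776, plus strand). It had 4484 and 4450 counts in shKDM2B, against 1059 and 1031 in shControl, or 127 and 128 CPM against 35.3 and 35.4 CPM. The libraries of each group lay nearly on top of each other. It rose by 1.85 in log2 units (SE 0.04, 95% interval 1.77 to 1.93, adjusted p = 3.08e-24 by edgeR's quasi-likelihood test).

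*BIRC3* encodes cIAP2, a ubiquitin ligase of the TNF receptor complex that restrains cell death (ENSG00000023445, GRCh37 chr11:102188215-102210134, plus strand). It had 934 and 899 counts in shKDM2B, against 329 and 318 in shControl, or 26.4 and 25.8 CPM against 11 and 10.9 CPM. Both shKDM2B libraries were far above both shControl libraries, and *BIRC3* rose by 1.25 on the log2 scale (SE 0.07, 95% interval 1.11 to 1.40, adjusted p = 5.86e-15 by edgeR's quasi-likelihood test). Its paralog *BIRC2*, which encodes cIAP1, had 55.7 and 53.8 CPM in shKDM2B and 77.6 and 71.2 CPM in shControl. The ratio of *BIRC3* to *BIRC2* per length was 0.287 and 0.289 in shKDM2B and 0.0852 and 0.0925 in shControl, a log2 difference of 1.70 with no overlap.

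By level per kb of exon, the order of the 10 genes differed between the groups. In shKDM2B cells *TNFAIP2* stood first with 25.2 ± 0.0755 CPM per kb (SD, n = 2), followed by *NFKBIA* (14.7), *NFKB2* (14.2), *RELA* (13.7), *RELB* (7.05), *TNFAIP3* (4.71), *NFKB1* (4.13), *BIRC3* (3.49), *NFKBIE* (2.68) and *REL* (0.752). In shControl cells *NFKBIA* (17.1 CPM per kb) and *RELA* (16.6) led, followed by *NFKB2* (11.6), *TNFAIP2* (6.99 ± 0.0218, SD, n = 2), *RELB* (4.74), *TNFAIP3* (4.73), *NFKBIE* (2.89), *NFKB1* (2.66), *BIRC3* (1.46) and *REL* (0.592). Neighbors whose libraries overlapped were *NFKBIA* with *NFKB2* and *NFKB2* with *RELA* in shKDM2B, and *NFKBIA* with *RELA* and *RELB* with *TNFAIP3* in shControl. The order also rests on the length used. With the longest transcript in place of all exons, *RELA* was rank 2 in shKDM2B and rank 1 in shControl, and *NFKB1* was rank 6 in both, in place of ranks 7 and 8.

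Of 90 other genes of the NF-κB pathway, listed by role, 81 had a row and 80 were tested. In shKDM2B 14 were higher, 18 lower and 48 not called, with a median log2 fold change of -0.04. These are 17.5% higher and 22.5% lower, where 13.3% and 6.79% of all genes were. The lists were chosen with earlier results of these data known, so such shares, here and by role below, are no independent result. Centred on ribosomal protein genes, the 80 genes held 23 higher and 12 lower calls, where 6216 and 469 of all 21783 genes were called.

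**Figure D5:**
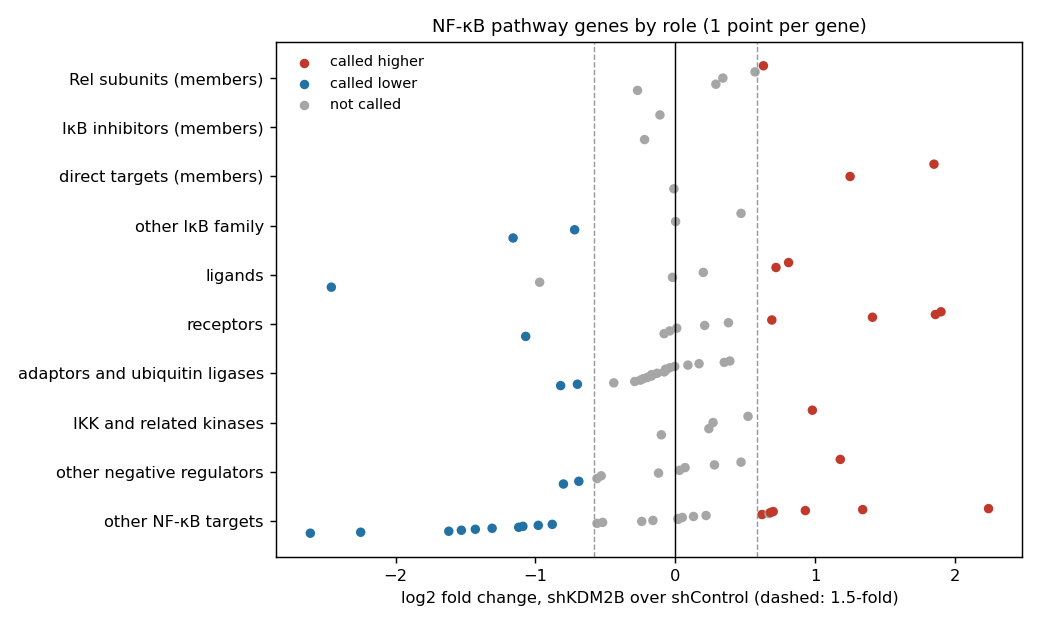
Log2 fold change under TMM, shKDM2B over shControl, of the 10 NF-κB genes (upper 3 rows) and of 80 other pathway genes by role, 1 point per gene, colored by call, with dashed lines at 1.5-fold. Calls in both directions appear among ligands, receptors, negative regulators and targets. Centring on ribosomal protein genes gives 23 higher and 12 lower calls among the 80 genes in place of 14 and 18. Over all genes tested it gives 6216 and 469 in place of 2887 and 1478.

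Of the 4 other IκB family genes, 2 were called lower and 0 higher under TMM, and 1 was called in each direction when centred on ribosomal protein genes. Over all 21783 genes, 13.3% were called higher and 6.79% lower under TMM, and 6216 and 469 genes when centred. *NFKBIZ*, which encodes the nuclear IκBζ, a coactivator of a subset of NF-κB targets, had 53.9 and 52.3 CPM in shKDM2B and 123 and 114 CPM in shControl, and fell by 1.16 on the log2 scale (adjusted p = 4.12e-19 by edgeR's quasi-likelihood test). *NFKBID*, which encodes the nuclear IκBNS, had 3.40 and 3.55 CPM in shKDM2B and 5.79 and 5.67 CPM in shControl, a log2 fold change of -0.72 that was no longer called when centred (-0.37). *BCL3*, whose nuclear product binds p50 and p52, was higher by 0.47 (adjusted p = 4.22e-09 by edgeR's quasi-likelihood test) without reaching 1.5-fold and was called when centred (0.82) and by library totals (0.60). *NFKBIB*, which encodes IκBβ, had 22.5 and 20.4 CPM in shKDM2B and 19 and 23.8 CPM in shControl, with overlapping groups.

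Of the 6 ligands tested, 2 rose (33.3%) and 1 fell (16.7%), where 13.3% and 6.79% of all genes were called. *IL1B*, which encodes interleukin-1β, had 657 and 643 CPM in shKDM2B and 3616 and 3564 CPM in shControl, and fell by 2.46 on the log2 scale (adjusted p = 4.12e-31 by edgeR's quasi-likelihood test). *IL1A*, which encodes interleukin-1α, moved the other way, with 14.9 and 13.7 CPM in shKDM2B and 8.42 and 7.83 CPM in shControl (0.81, adjusted p = 1.02e-08). *TNFSF13B*, which encodes the B cell factor BAFF, rose by 0.72. *TNF* itself had few counts, 6 and 6 counts in shKDM2B and 8 and 12 in shControl, and did not pass the test (adjusted p = 0.129).

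Of 10 receptors tested, 4 were called higher and 1 lower, where 13.3% and 6.79% of all genes were. *IL1RAP*, which encodes the coreceptor of the interleukin-1 receptor, had 56.5 and 59.3 CPM in shKDM2B and 16.5 and 14.5 CPM in shControl, and rose by 1.90 in log2 units (adjusted p = 1.38e-21 by edgeR's quasi-likelihood test). *TLR4*, which encodes the receptor for lipopolysaccharide, rose by 1.86 on few reads, with 127 and 120 counts in shKDM2B and 39 and 18 in shControl. Its log2 fold change was 2.51 without shControl 1 and 1.44 without shControl 2. *TLR3*, which encodes a receptor for double-stranded RNA, rose by 1.41, and *LTBR*, which encodes the lymphotoxin β receptor of the noncanonical pathway, by 0.69. *TNFRSF1B*, which encodes TNF receptor 2, had 48.6 and 47.1 CPM in shKDM2B and 98.9 and 102 CPM in shControl, and fell by 1.07 (adjusted p = 8.57e-19). *TNFRSF1A*, which encodes TNF receptor 1, had 87.7 and 89.6 CPM in shKDM2B and 86.4 and 89.1 CPM in shControl, with overlapping groups.

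Adaptors and ubiquitin ligases, 19 tested, held 0 higher and 2 lower calls under TMM, where 13.3% and 6.79% of all genes were called. Centred on ribosomal protein genes, they held 2 higher and 0 lower calls, where 6216 and 469 of all 21783 genes were called. *IRAK2*, which encodes a kinase of the MYD88 complex, had 34.0 and 33.2 CPM in shKDM2B and 58.2 and 60.8 CPM in shControl, a log2 fold change of -0.82 under TMM and -0.48, not called, when centred. *TRAF3*, whose product keeps the noncanonical kinase NIK low, had 29.1 and 29.6 CPM in shKDM2B and 48.2 and 47.5 CPM in shControl, a log2 fold change of -0.70 under TMM that was not called by library totals (-0.57) or when centred (-0.36). Of 5 kinases 1 was called higher under TMM, where 13.3% of all genes were, and 3 when centred, where 6216 of all 21783 genes were. *MAP3K8*, whose product is held by p105, had 13.4 and 11.9 CPM in shKDM2B and 6.09 and 6.73 CPM in shControl, and rose by 0.98 (adjusted p = 2.03e-09 by edgeR's quasi-likelihood test). The IκB kinase genes *CHUK* (0.52) and *IKBKB* (0.24) were under 1.5-fold, and *CHUK* was called by library totals (0.65) and when centred (0.87).

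Of the 10 other negative regulators, 1 was called higher and 2 lower under TMM. By library totals 2 were higher and 1 lower, and when centred on ribosomal protein genes 3 were higher and 0 lower. Over all 21783 genes the calls were 13.3% higher and 6.79% lower under TMM, 3833 and 938 by library totals, and 6216 and 469 when centred. *TNIP3*, which encodes the A20-binding protein ABIN-3, had 16.5 and 15.7 CPM in shKDM2B and 7.23 and 6.94 CPM in shControl, and rose by 1.18 in log2 units (adjusted p = 3.62e-12 by edgeR's quasi-likelihood test). *CYLD*, which encodes a deubiquitinase, had 66.1 and 69.3 CPM in shKDM2B and 112 and 107 CPM in shControl (-0.69), and *ITCH*, which encodes a ubiquitin ligase, had 45.3 and 43.3 CPM in shKDM2B and 77.8 and 76.0 CPM in shControl (-0.80). Of the exonic bases of *ITCH*, 23.9% are shared with other genes, nearly all with ENSG00000289720 on the same strand. Neither *CYLD* nor *ITCH* was called when centred on ribosomal protein genes (*CYLD* -0.34, *ITCH* -0.45), and *CYLD* was not called by library totals (-0.56). *TNIP1*, which encodes ABIN-1, was under 1.5-fold at -0.53.

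Other NF-κB targets did not move together. Of 26 tested, 6 rose, 10 fell and 10 were not called, with a median log2 fold change of -0.20. These are 23.1% higher and 38.5% lower, where 13.3% and 6.79% of all genes were. This list too was chosen with earlier results of these data known, so the excess is no independent result. *CCL2*, which encodes a monocyte chemokine, had 44.5 and 43.8 CPM in shKDM2B and 8.19 and 10.5 CPM in shControl, and rose by 2.24 in log2 units (adjusted p = 1.70e-20 by edgeR's quasi-likelihood test). *PLAU*, which encodes urokinase, had 1193 and 1139 CPM in shKDM2B and 453 and 467 CPM in shControl, and rose by 1.34. The adhesion gene *ICAM1* rose by 0.70, *GADD45B*, which encodes a stress-response protein, by 0.68, and *TNFAIP6*, which encodes a hyaluronan-binding protein, by 0.62. *GADD45B* was not called without shControl 1 (0.58), nor *TNFAIP6* without shKDM2B 1 (0.41). *PLAU* shares 31.0% and *ICAM1* 25.4% of its exonic bases with genes on the opposite strand, whose reads cannot be told apart because the strand setting is not given.

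Among the targets that fell were cytokine genes and *PTGS2*. *LIF*, which encodes a cytokine of the interleukin-6 family, had 390 and 363 CPM in shKDM2B and 1011 and 1018 CPM in shControl, and fell by 1.43 on the log2 scale (adjusted p = 1.01e-24 by edgeR's quasi-likelihood test). *PTGS2*, which encodes the prostaglandin-forming cyclooxygenase-2, had 94.8 and 88.7 CPM in shKDM2B and 271 and 258 CPM in shControl, and fell by 1.53. *IL6*, which encodes interleukin-6, had 136 and 135 CPM in shKDM2B and 291 and 284 CPM in shControl, and fell by 1.09. The neutrophil chemokine genes *CXCL8* and *CXCL2* fell by 0.98 and 1.31. All 5 stayed called with library totals and when centred on ribosomal protein genes, and the centred log2 fold changes were -0.63 to -1.18. *SOD2*, which encodes the mitochondrial superoxide dismutase, had 469 and 465 CPM in shKDM2B and 426 and 430 CPM in shControl, a log2 fold change of 0.13 without a call.

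Among these targets, the classical κB consensus was present in the promoter windows of 12 of the 23 genes that had one (52.2%), in 1 of 5 that rose and in 5 of 8 that fell, where 8.67% of genes in the table held it. All 4 other IκB family genes had a classical match. Both lists were chosen as NF-κB genes, so an excess over all genes is no independent result. A gene without a match may still have a κB site of other letters or outside its windows. Whether matches go with the direction of change was not tested.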

How the data were processed

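Libraries of polyadenylated RNA were read in 3 lanes each (single-end, 50 bp). As the supplement and the submitters' notes describe, the authors converted reads with CASAVA 1.8.2, aligned them to hg19 with TopHat2 2.0.11 and counted them on Ensembl annotation. The deposited raw counts per gene, with lanes combined, were used. Columns of normalized counts, group means, fold changes and p-values from the authors' DESeq comparison were not used. The Ensembl release and strand setting were not given in the sources used here.

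Counts of the 21783 genes with a mean of at least 10 in either group were tested with edgeR 4.0.16 (quasi-likelihood, TMM, Benjamini-Hochberg adjustment) in R 4.3.3. The common biological coefficient of variation was 2.62%, with 24.3 prior and 2 residual degrees of freedom. The test was checked on simulated data. There, 91% of genes with a true 1.5-fold change passed the adjusted p, and 38.8% were called with the fold threshold. Of genes with a true 2-fold change, 100% were called, as were 2 of 21069 unchanged genes. A gene near 1.5-fold, such as *NFKB1* or *RELB*, can thus fall on either side of the threshold. With few genes changed, in equal numbers up and down, the simulation could not test the scaling between libraries. Nor could it test spread that these 4 libraries do not hold. Positions and shared exonic bases came from GENCODE on GRCh37 (bedtools 2.31.1), and promoters from RefSeq, GRCh38.p14. Python 3.11.15 with scipy 1.17.1 and pandas 2.3.3 gave ratios and figures. The 10 genes, lists, thresholds and alternatives were chosen with earlier results of these data known. Named were the 10 genes, *KDM2B*, *BIRC2* for its ratio and, of each list, up to 5 called genes per direction by adjusted p and up to 3 others by count. Outside this rule, *BCL2A1*, *CCL20* and *CXCL3* were named for the size of their falls.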

Additional observations from a re-analysis of the deposited data

How the results depend on the processing

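Of the 10 NF-κB genes, 3 were called higher under TMM, and also with DESeq2 size factors, with DESeq2 1.42.0, without the low-count filter, with a prior count of 2, with Bonferroni adjustment and without each library in turn (3 to 3). With library totals and with a minimum mean count of 50 there were 4, with centring on ribosomal protein genes 6 and without a fold threshold 6. None was called lower, except 2 without a fold threshold. Same-numbered libraries did not deviate together (correlation 0.05). A fit with the replicate number as a block gave 3 higher calls and 0 lower, 14 and 18 among the other pathway genes, and 2927 and 1482 over all genes.

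Of the other pathway genes, 14 were higher and 18 lower. Centring gave 23 higher, and omitting the fold threshold 26 higher and 31 lower. Leaving out a library gave 13 to 13 higher and 18 to 19 lower. Over all genes, centring gave 6216 higher and 469 lower, DESeq2 2162 and 1275, Bonferroni adjustment 1568 and 1076, and omitting the fold threshold 6188 and 6416.

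Genes of small fold change changed sign. Centring gave *RELA* 0.07, *NFKBIA* 0.13, *NFKBIE* 0.24, *TNFAIP3* 0.34, *TNFSF12* 0.33, *TNFRSF12A* 0.31, *IL1R1* 0.26, *IRAK1* 0.31, *TAB2* 0.06, *SHARPIN* 0.17, *TBK1* 0.25 and *BCL2L1* 0.10. Library totals gave *NFKBIE* 0.02, *TNFAIP3* 0.13, *TNFSF12* 0.11, *TNFRSF12A* 0.10, *IL1R1* 0.05, *IRAK1* 0.09 and *TBK1* 0.04. Both scalings move all genes alike by construction. A minimum mean count of 50 gave *TNFAIP3* 0.02 and *TNFSF12* 0.01, and *NFKBIB* was -0.0029 with DESeq2 size factors and -0.0041 with DESeq2. Without shKDM2B 1, *NFKBIB* was -0.07. Without shKDM2B 2, *TNFRSF1A* was -0.01. Without shControl 1 or 2, *TNFSF12* was 0.07 or -0.09, *TNFSF14* 0.47 or -0.01, *TNFRSF12A* -0.08 or 0.02 and *IRAK1* -0.08 or 0.01. Without shControl 1, *NFKBIB* was -0.15 and *TNFRSF1A* -0.0042. Without shControl 2, *TNFAIP3* was 0.07. The cause of these small changes was not tested. *IER3* was not called when centred (-0.54). With Bonferroni adjustment *NFKBID* and *TNFAIP6* were not called.

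Depth limits the genes of few counts, such as *TNF*, and intervals cover these 4 libraries only. With 2 libraries per group, the smallest exact p for a ratio is 0.333.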
